A study of Mus musculus with 6 samples.

Results

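The genes described here are the PEA3 group of ETS transcription factors (Etv1, Etv4, Etv5) and the inducible inhibitors of ERK signalling (Spry1, Spry2, Spry4, Spred1, Spred2, Dusp4, Dusp6), measured in fractions of prepubertal mouse testis. Members were the probe sets that the array platform assigns to 1 of these 10 genes and to no other gene. This gave 27 of the 45037 probe sets tested, for 9 of 18193 genes. All 3 probe sets of Etv1 are also assigned to the pseudogene Gm5454, so Etv1 itself was not measured apart from it. All 27 probe sets were tested, with no filter on low values.

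A magnetic sort on the surface protein Thy1 had divided the testis cells into a Thy1-positive fraction, which transplantation showed to be enriched in spermatogonial stem cells, and the remaining Thy1-negative fraction. Total RNA of each fraction was hybridised to Affymetrix arrays, with 3 arrays per fraction from separate donor preparations, called N1, N2 and N3 for Thy1-negative and P1, P2 and P3 for Thy1-positive cells. The labels state no strain, genotype, treatment or age in days for either fraction. The fractions are mixtures sorted by 1 surface protein, not pure cell types, and in such bulk samples fewer cells of a type and less RNA per cell cannot be told apart. With only 3 arrays per fraction, each value is of limited precision.

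Growth factors such as GDNF and FGF bind receptor tyrosine kinases, which pass a signal through RAS, RAF and MEK to the kinase ERK. ERK activity switches on the PEA3 factors, which bind DNA at the core GGAA and turn on further genes, and it also switches on Sprouty, Spred and Dusp proteins, which damp the same pathway. In the testis GDNF from Sertoli cells acts on undifferentiated spermatogonia through Ret and Gfra1, and mice without Etv5 lose their spermatogonial stem cells over time. Etv5 is also made by Sertoli cells.

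Values are log2(intensity + 1), and a difference is the mean of the Thy1-positive arrays minus that of the Thy1-negative arrays. A gene is said to be higher or lower, to rise or to fall, where limma's adjusted p over all 45037 probe sets was below 0.05, and every adjusted p is of that kind. Probe sets of different genes bind their targets unequally, so levels are compared between fractions and not between genes.

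The proximal promoters of 7 of the 10 genes were held by the RefSeq table for GRCm38.p6, in 9 windows of 250 bases before an annotated start. They are shown because the genes named here are classed by how they are induced, and the letters bear on no measured value, since the arrays measured RNA alone. Printed 5′ to 3′ on the gene's own strand are a window of Etv5 (chr16:22439571-22439820, minus strand), which was higher in Thy1-positive cells, that of Spred2 (chr11:19924192-19924441, plus strand), and that of Dusp6 (chr10:99262981-99263230, plus strand), which was not called. Capitals mark the only match to a motif searched for.
Etv5: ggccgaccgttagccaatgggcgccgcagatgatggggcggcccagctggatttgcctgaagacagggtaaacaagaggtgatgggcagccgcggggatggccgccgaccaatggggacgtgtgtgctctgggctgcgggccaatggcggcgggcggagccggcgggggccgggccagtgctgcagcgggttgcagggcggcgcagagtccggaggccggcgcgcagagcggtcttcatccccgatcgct
Spred2: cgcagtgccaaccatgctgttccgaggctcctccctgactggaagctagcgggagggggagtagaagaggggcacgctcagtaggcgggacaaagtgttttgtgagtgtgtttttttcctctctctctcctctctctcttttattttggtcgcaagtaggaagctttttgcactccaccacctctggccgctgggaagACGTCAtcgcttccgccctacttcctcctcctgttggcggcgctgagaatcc
Dusp6: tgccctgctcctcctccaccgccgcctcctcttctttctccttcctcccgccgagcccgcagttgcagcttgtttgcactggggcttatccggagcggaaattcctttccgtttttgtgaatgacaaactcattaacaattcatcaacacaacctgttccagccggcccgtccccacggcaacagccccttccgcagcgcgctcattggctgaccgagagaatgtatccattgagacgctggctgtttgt
The ETS motif CCGGAA, which is longer than the GGAA core, was searched on both strands and matched in 0 of the 9 windows, against 12.03% of 32851 RefSeq windows of the same length. The bare core was not searched for, and the count of 0 holds for the longer motif alone. The core TGACGT of cAMP response elements was present in 1 of the 9, that of Spred2, starting 52 bases before the start and reading ACGTCA on the printed strand, against 6.469% of all windows. The AP-1 motif TGANTCA, where N is any base, matched in 0 of the 9, against 6.749%. A match is a description of the letters, not a site, and the absence of one says only that these letters are not in these windows.

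The arrays were of like brightness, with median intensities from 15.7 to 17.5. Of the Thy1-negative arrays N2 stood apart: over all probe sets it correlated with N1 at 0.987 and with N3 at 0.991, against 0.997 between N1 and N3. Of the Thy1-positive arrays P2 stood apart to a lesser degree. It correlated with P1 at 0.990 and with P3 at 0.994, against 0.997 between P1 and P3. The mean of N2 over 10 genes of germ cells was 10.51, against 8.74 on N1, 9.29 on N3 and 11.34 to 11.36 on the Thy1-positive arrays. Of these 10 genes 3 were higher in Thy1-positive cells, while 9 differed upwards at an unadjusted p of limma below 0.05. Their median difference was 1.80, and the fractions did not overlap for any of the 10, against 51.4% of all genes. Markers of undifferentiated spermatogonia matched the labels, with 12 of 13 higher in Thy1-positive cells and list means of 9.12 to 9.46 against 6.04 to 6.74. The other cell types in the fractions differed too. All 11 macrophage markers were higher in Thy1-positive cells (list means 8.96 to 9.46 against 3.24 to 3.30, summed intensities 8575 to 12486 against 121 to 137, with 5 of the 11 at low signal in Thy1-negative cells). Of 11 Sertoli markers 10 were lower in Thy1-positive cells (list means 6.09, 7.78 and 6.25 on P1, P2 and P3 against 10.29 to 10.51, summed intensities 5145 to 20801 against 85724 to 103027), and Amh and Fshr were at low signal there, that is below the 25th percentile of the arrays. Of 7 markers of peritubular myoid cells 5 were lower, 3 of 6 T lymphocyte markers and 1 of 7 endothelial markers were higher, and 1 of 4 Leydig markers was lower. By limma 0 of 7 interstitial mesenchyme markers were called, and 1 of them was lower at an unadjusted p below 0.05. Mesenchyme list means were 10.41, 11.90 and 11.11 on P1, P2 and P3, against 11.13 to 11.63 on the Thy1-negative arrays. The part of any of these cell types in the values that follow was not tested.

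Among the 9 measured genes, each represented by its probe set of highest mean, 4 were higher in Thy1-positive cells (Etv4, Etv5, Spred2 and Dusp4), 0 were lower by limma and 5 were not called (Spry1, Spry2, Spry4, Spred1 and Dusp6). At an unadjusted p below 0.05, 4 were higher and 2 lower. Over all 18193 genes 16.4% were higher and 13.2% lower by the same rule. The fractions did not overlap for 6 of the 9 genes, against 51.4% of all genes. The median difference was 0.61, against 0.01 over all genes. Over the 27 probe sets 9 were higher and 1 was lower, against 11.8% and 11.5% of all probe sets, and the median difference was 0.25, against 0.00 over all probe sets. Probe sets of 1 gene share their target and are not independent. With each array centred on its median, 16 of the 27 were higher and 1 lower, but over all probe sets the higher calls then made up 81.4% of calls, against 50.6% as reported, and the median of all differences moved to 0.13. The 4 higher genes became 2 without N1, P1 or P3 and 3 without N2, N3 or P2. The 9 higher probe sets became 4 without N1, P1 or P3. Over all probe sets higher calls numbered 5332 with all arrays, and 2806, 2657 and 1639 without N1, P1 and P3. Without N2, N3 and P2 they numbered 6790, 2067 and 4092. Without N2 there were 3 lower genes (Spry1, Spry2 and Dusp6) and 5 lower probe sets. Without N3, P1, P2 or P3 there were 0 lower probe sets. Over all probe sets lower calls numbered 5201 with all arrays and 6214 without N2. They numbered 2791, 2161, 2773, 4130 and 1538 without N1, N3, P1, P2 and P3.

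**Figure D1:**
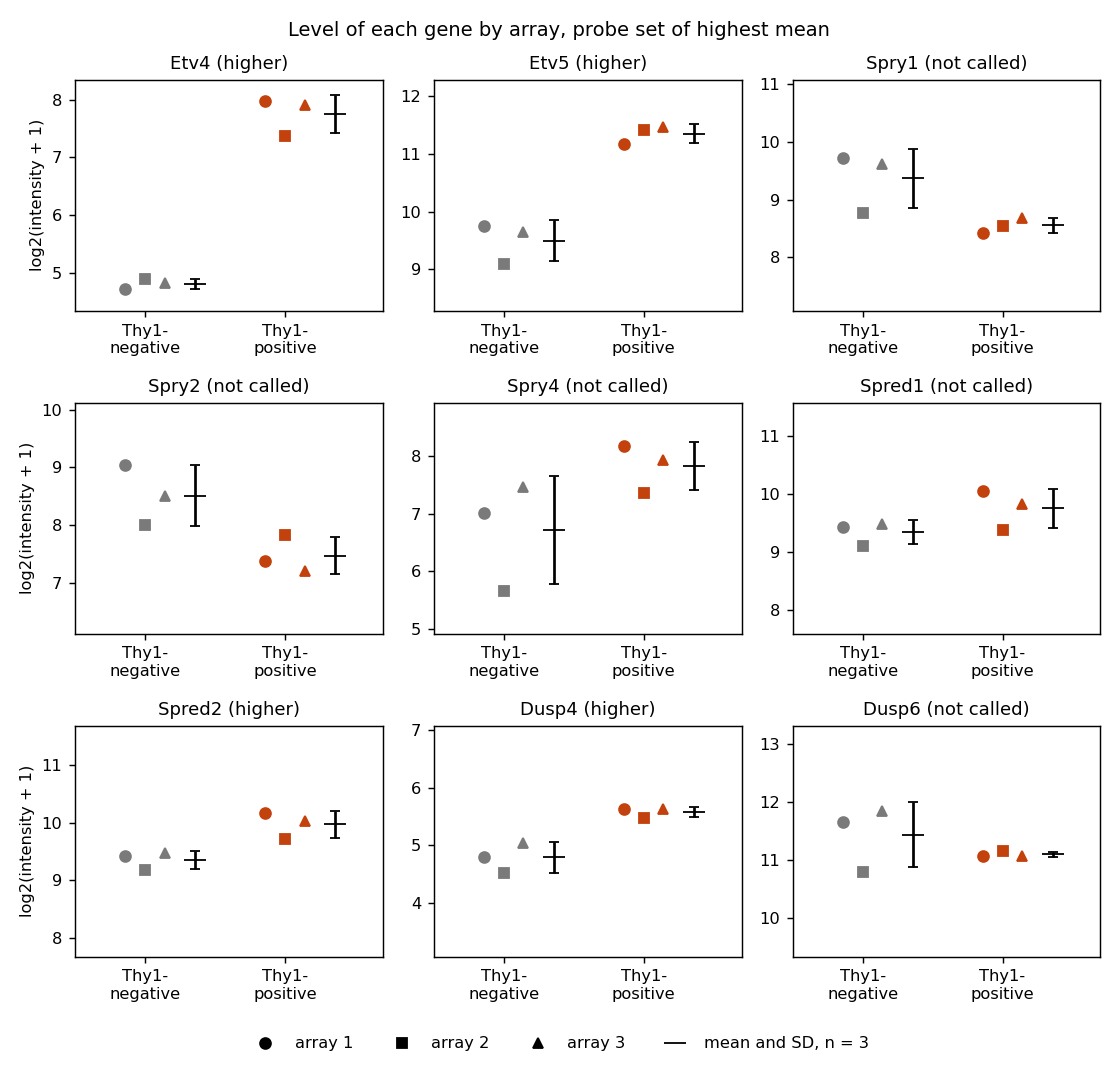
Level of each of the 9 measured genes on each array, as log2(intensity + 1) of its probe set of highest mean. Grey symbols are the Thy1-negative arrays and orange symbols the Thy1-positive arrays, circles, squares and triangles are arrays 1, 2 and 3, and bars give the mean and SD (n = 3); each panel spans 4 log2 units about its own middle. The fractions of Etv4 and Etv5 are well separated, those of Spry1 and Spry2 do not overlap but were not called, and the square of the Thy1-negative arrays (N2) is the lowest of its group for 8 of the 9 genes, Etv4 being the exception.

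The PEA3 factors Etv4 and Etv5 showed the largest differences of the 9 genes by their brightest probe sets. Etv4 measured 4.72, 4.89 and 4.83 on N1, N2 and N3 and 7.97, 7.37 and 7.91 on P1, P2 and P3, or intensities of 25.3 to 28.7 against 164 to 250. Every Thy1-positive array therefore lay far above every Thy1-negative array, and the Thy1-negative arrays were close together. Etv4 was 7.65-fold higher in Thy1-positive cells (difference 2.93, SE 0.19, 95% interval 2.45 to 3.42, adjusted p = 0.00256). A second probe set of Etv4, 1443381_at, was dim in both fractions (2.86 ± 0.04 against 3.11 ± 0.20, SD, n = 3) and was not called (0.25, adjusted p = 0.188).

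Etv5, the PEA3 factor with a known requirement in stem cell maintenance, was measured by 3 probe sets, and all 3 rose. The brightest, 1428142_at, gave 9.75, 9.10 and 9.64 on N1, N2 and N3 and 11.17, 11.41 and 11.47 on P1, P2 and P3. The fractions were apart by more than a log2 unit, and Etv5 was clearly measured in Thy1-negative cells as well. By this probe set Etv5 was 3.61-fold higher in Thy1-positive cells (1.85, SE 0.21, 95% interval 1.31 to 2.40, adjusted p = 0.00819). The dimmer probe set 1450082_s_at gave 7.45, 6.76 and 6.95 against 9.22, 9.13 and 9.33, a 4.50-fold difference (2.17, SE 0.20, adjusted p = 0.00548). The third, 1420998_at, gave 6.69, 5.82 and 6.71 against 8.92, 8.92 and 9.06, a 5.89-fold difference (2.56, SE 0.28, adjusted p = 0.00770). The direction and the call were thus shared by all 3, while the estimated size differed between them.

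Etv4 and Etv5 kept their calls in each of the 6 fits that left out 1 array. Their differences then ranged from 2.82 to 3.13 for Etv4 and from 1.65 to 1.98 for the brightest probe set of Etv5, with N2 giving the lowest value for Etv5. The difference of Etv4 exceeded that of Etv5 by 1.08, and the contrast of the pair on each array did not overlap between fractions. An exact two-sided permutation test gave p = 0.1, the smallest that 3 arrays against 3 allow, and p = 0.12 adjusted over 6 pairs of related genes, so this test cannot pass 0.05 with 3 arrays a fraction, and its p says nothing on whether the contrast is there. By the other probe sets of Etv5 the gap to Etv4 is smaller.

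**Figure D2:**
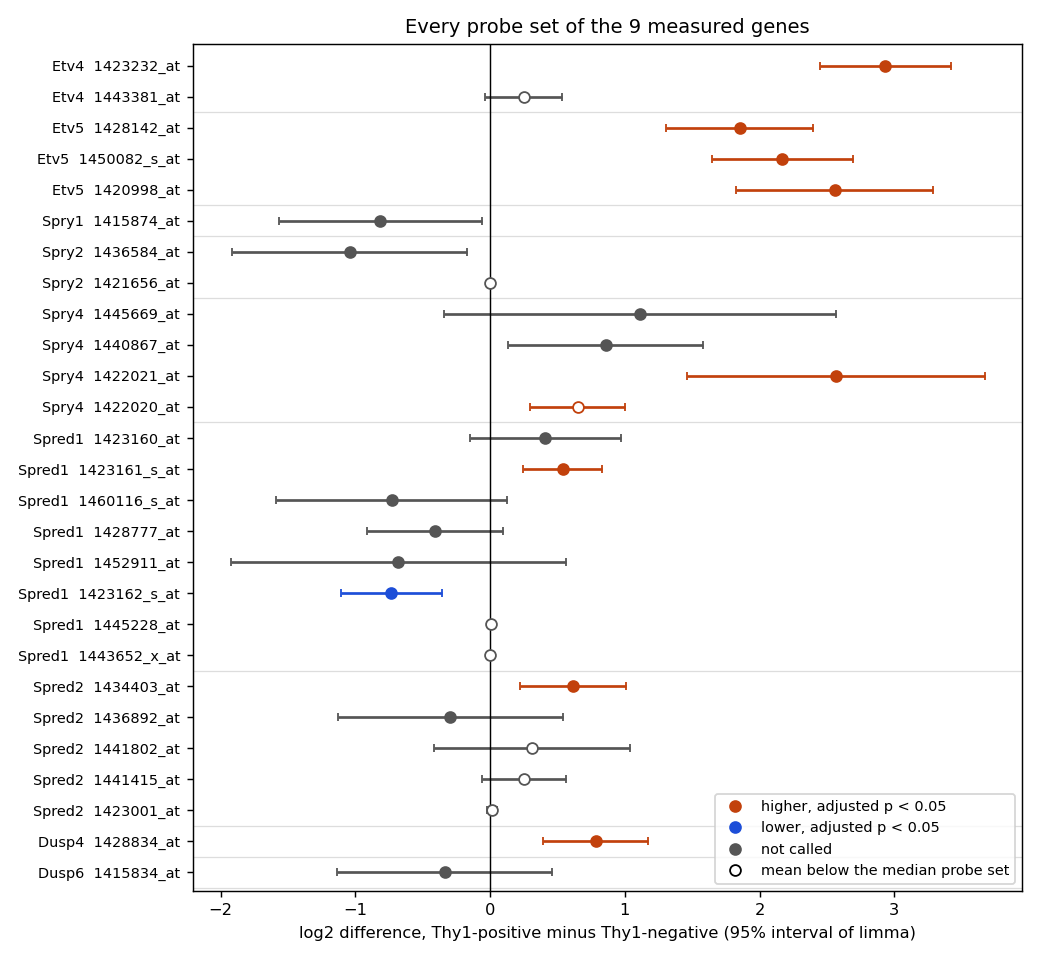
Difference between the fractions (Thy1-positive minus Thy1-negative, log2) for each of the 27 probe sets of the 9 measured genes, with limma's 95% interval. Orange points were higher and blue points lower at an adjusted p below 0.05, grey points were not called, and open points had a mean below the median of all probe sets. All 3 probe sets of Etv5 lie between 1.85 and 2.56, whereas those of Spred1 lie on both sides of 0.

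The Sprouty genes, whose proteins act between receptor and RAF, differed in direction by their brightest probe sets, which were not called. Spry1 measured 9.72, 8.78 and 9.61 on N1, N2 and N3 and 8.43, 8.55 and 8.69 on P1, P2 and P3. The fractions did not overlap, but N2 lay just above the highest Thy1-positive array. The difference was -0.81 (SE 0.29, 95% interval -1.57 to -0.06) and was not called (adjusted p = 0.120). Without N2 it was -1.11 and passed (adjusted p = 0.00601), and in the 5 other fits that left out an array it did not. It also passed where only probe sets above the median level were tested.

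Spry2 gave a like picture. It measured 9.04, 7.999 and 8.50 on N1, N2 and N3 and 7.38, 7.83 and 7.20 on P1, P2 and P3. All Thy1-positive arrays lay below all Thy1-negative arrays, with N2 and P2 nearest to each other. The difference of -1.04 (SE 0.33, 95% interval -1.91 to -0.17) was not called (adjusted p = 0.0930), and without N2 it was -1.30 and passed (adjusted p = 0.0475). It also passed with arrays centred on housekeeping genes, and where only probe sets above the median level were tested. A second probe set of Spry2, 1421656_at, was at low signal in both fractions, at 2.37 in each, and carries no information on a difference.

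Spry4, the third Sprouty gene measured, pointed the other way. By its brightest probe set, 1445669_at, it measured 7.01, 5.66 and 7.45 on N1, N2 and N3 and 8.18, 7.36 and 7.93 on P1, P2 and P3. P2 lay below N3, so the fractions overlapped. The difference of 1.11 (SE 0.55, 95% interval -0.34 to 2.57) was not called (adjusted p = 0.244), and it ranged from 0.59 without N2 to 1.49 without N3, never called. Probe set 1440867_at gave 5.80, 5.29 and 5.80 against 6.91, 6.08 and 6.47, which did not overlap (0.86, SE 0.27, adjusted p = 0.0949).

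A dimmer probe set of Spry4, 1422021_at, gave the clearest separation of that gene. It measured 3.29, 3.12 and 4.36 on the Thy1-negative and 6.47, 5.71 and 6.29 on the Thy1-positive arrays, a 5.93-fold difference (2.57, SE 0.42, adjusted p = 0.0180). The call was lost without N1 (2.42), P1 (2.41) or P3 (2.50), and with a pseudocount of 16 the difference was 1.65, still called. The last probe set, 1422020_at, was near background throughout, at 2.63, 2.36 and 2.63 against 3.39, 3.00 and 3.19 (0.65, SE 0.13, adjusted p = 0.0316). It was at low signal in Thy1-negative cells, and with values below the 25th percentile raised to that level the difference was 0.52, and with a pseudocount of 16 it was 0.21, both called. The call was kept in 1 of the 6 fits that left out an array, that without P2 (0.75), and was lost without N1 (0.70), N2 (0.56), N3 (0.70), P1 (0.55) or P3 (0.65). All 4 probe sets of Spry4 were higher in mean in Thy1-positive cells, 2 of them called.

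The contrast of Spry4 with the other Sprouty genes was measured on each array. The difference of Spry4 exceeded that of Spry1 by 1.93 and that of Spry2 by 2.16, and in both cases the values of the arrays did not overlap between fractions. Spry2 and Spry1 differed from each other by -0.23, with overlap. The exact two-sided permutation p was 0.1 for both contrasts with Spry4, the smallest possible, and 0.6 for Spry2 with Spry1, or 0.12 and 0.6 adjusted over the 6 pairs.

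The Spred genes encode membrane proteins related to Sprouty that bring the RAS inhibitor neurofibromin to the membrane. Spred2 measured 9.42, 9.18 and 9.47 on N1, N2 and N3 and 10.17, 9.72 and 10.02 on P1, P2 and P3. The fractions did not overlap, and Spred2 was 1.53-fold higher in Thy1-positive cells (0.61, SE 0.15, 95% interval 0.22 to 1.01, adjusted p = 0.0475). That call was at the threshold: it was kept without P2 (0.74) and lost without N1 (0.65), N2 (0.53), N3 (0.67), P1 (0.51) or P3 (0.59). Its next probe set by brightness, 1436892_at, measured 6.37, 6.22 and 6.47 against 6.59, 5.44 and 6.14 and was not called (-0.30, adjusted p = 0.597). The other 3, at mean levels below the median of all probe sets, differed by 0.01 to 0.31 and were not called.

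Spred1 has 8 probe sets on the array, and they did not give 1 answer. The brightest, 1423160_at, measured 9.43, 9.11 and 9.49 on N1, N2 and N3 and 10.05, 9.39 and 9.82 on P1, P2 and P3, with overlap, and was not called (0.41, SE 0.21, 95% interval -0.15 to 0.97, adjusted p = 0.264). The next, 1423161_s_at, gave 8.84, 8.52 and 8.77 against 9.38, 9.15 and 9.23 and was higher (0.54, SE 0.11, adjusted p = 0.0315). It stayed called without N2 (0.44) and lost the call without N1 (0.61), N3 (0.57), P1 (0.48), P2 (0.59) or P3 (0.55).

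Other probe sets of Spred1 pointed down. Probe set 1423162_s_at gave 5.36, 4.85 and 5.11 on the Thy1-negative and 4.43, 4.39 and 4.31 on the Thy1-positive arrays and was lower (-0.73, SE 0.14, adjusted p = 0.0278), the only lower probe set of the 27. That call was lost without N3 (-0.73), P1 (-0.76), P2 (-0.74) or P3 (-0.70), and with a pseudocount of 16 the difference was -0.47, still called. Probe set 1460116_s_at gave 7.63, 6.67 and 7.57 against 6.30, 6.86 and 6.53 and was not called (-0.73, SE 0.33, adjusted p = 0.202), but passed without N2 (-1.04, adjusted p = 0.0317). Probe sets 1428777_at and 1452911_at differed by -0.41 and -0.68 and were not called, and the last 2, 1445228_at and 1443652_x_at, were dim and level in both fractions (3.10 and 2.40 to 2.41). So for Spred1 the direction depends on which probe set is read, and no direction is given for the gene. The difference of Spred2 exceeded that of Spred1 by 0.20 by their brightest probe sets, without overlap between fractions (exact permutation p = 0.1, adjusted p = 0.12).

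The Dusp genes encode phosphatases that remove phosphate from ERK itself, Dusp6 in the cytoplasm and Dusp4 in the nucleus, and each has 1 probe set. Dusp4 measured 4.80, 4.52 and 5.05 on N1, N2 and N3 and 5.62, 5.48 and 5.62 on P1, P2 and P3. The fractions did not overlap, and Dusp4 was 1.72-fold higher in Thy1-positive cells (0.78, SE 0.15, 95% interval 0.39 to 1.17, adjusted p = 0.0258). The call was kept without N2 (0.65) or N3 (0.91) and lost without N1 (0.79), P1 (0.76), P2 (0.83) or P3 (0.76).

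Dusp6 measured 11.66, 10.80 and 11.85 on N1, N2 and N3 and 11.07, 11.15 and 11.07 on P1, P2 and P3. The Thy1-positive arrays lay close together, above N2 and below N1 and N3, so the fractions overlapped. Dusp6 was not called (-0.34, SE 0.30, 95% interval -1.13 to 0.46, adjusted p = 0.533), and that interval holds differences in either direction. Without N2 the difference was -0.65 and passed (adjusted p = 0.0100), and in the other 5 fits it lay between -0.36 and -0.13 with no call. The difference of Dusp4 exceeded that of Dusp6 by 1.12, without overlap between fractions (exact permutation p = 0.1, the smallest possible, adjusted p = 0.12).

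**Figure D3:**
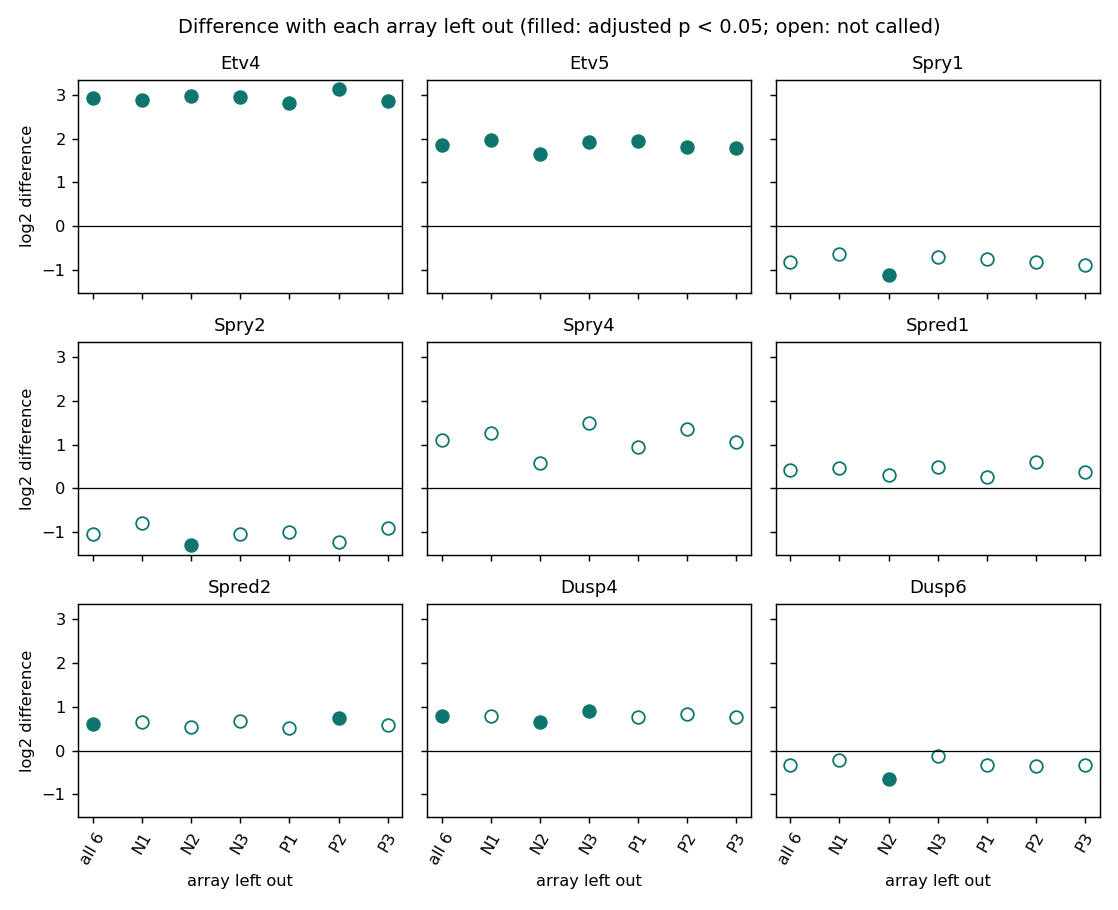
Difference between the fractions (Thy1-positive minus Thy1-negative, log2) of each gene's brightest probe set with all 6 arrays and with each array left out in turn. Filled points had an adjusted p below 0.05 and open points did not. Etv4 and Etv5 stay filled throughout, whereas Spry1, Spry2 and Dusp6 are filled only without N2.

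The array N2 moved with most of these genes. Among the 19 member probe sets with a mean above the median of all probe sets, N2 was the lowest Thy1-negative array in 18 (94.7%), against 43.1% of the 22835 probe sets above that median. By gene it was the lowest in 8 of 9, against 56.2% of all genes. The exception was Etv4, which was higher on N2 (4.89) than on N1 and N3. Among the Thy1-positive arrays P2 was the lowest in 10 of the 19 (52.6%), against 43.4%. N2 was also the Thy1-negative array with the highest mean of germ cell markers (10.51) and the lowest mean of Sertoli markers (10.29, against 10.51 on N1 and 10.48 on N3), as given above. Its list means of Leydig markers (9.54, against 10.68 on N1 and 10.22 on N3) and of interstitial mesenchyme markers (11.13, against 11.59 and 11.63) were the lowest of the Thy1-negative arrays, and that of myoid markers (8.99, against 8.25 and 8.53) was the highest. The part of any of these in the lower values of N2 was not tested.

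The genes whose pattern over the 6 arrays was most like that of Etv5 were Kat5, H2-Aa, Mndal, Tagln2 and Gpx3, each with a Pearson correlation of 0.997 or 0.998 among 11348 genes above the median level. Their own differences were 0.48, 4.48, 3.00, 1.53 and 2.10. Those most like Dusp6 were Smim11 and Zfp952 (both 0.990), Uevld (0.987), Zfp954 (0.984) and Nadk2 (0.980), with differences of -0.36, -0.08, -0.29, -0.19 and -0.27. For Etv5 the points fall in 2 clusters set by the fraction, so these correlations describe a shared contrast over 6 arrays and no more.

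The other genes of the pathway were read from 7 lists, ordered from the receptor to the nucleus and covering 104 measured genes. Of these 24 were higher and 18 lower, against the 16.4% and 13.2% of all genes given above. The higher genes numbered 15 without N1, 31 without N2, 12 without N3, 14 without P1, 21 without P2 and 15 without P3. The lower genes numbered 7 without N1, 21 without N2, 4 without N3, 5 without P1, 13 without P2 and 3 without P3. Calls over all probe sets, given above, moved the same way. Both higher and lower calls were more numerous without N2 and fewer in every other fit that left out an array. The gains and losses of calls named below thus had a counterpart over all probe sets. Whether their share differed among the pathway genes was not tested. Of the 42 called genes 14 kept their call in every one of these fits, and 10 kept it in a single one.

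Among 18 receptors and co-receptors 4 were higher, 1 was lower and 13 were not called, with a median difference of 0.07 (0.01 over all genes). Ret, the kinase of the GDNF receptor, measured 6.23 to 6.82 in Thy1-negative and 9.87 to 10.51 in Thy1-positive cells (3.62, adjusted p = 0.00276), and Gfra1, its GDNF-binding partner, 6.53 to 6.70 and 9.91 to 10.20 (3.47, adjusted p = 0.000315). Gfra1 also rose by its remaining probe sets, by 5.47 and 4.71. Csf1r, a receptor of macrophages, rose by 3.74 by its brightest probe set and by 6.75 and 8.63 by the others, the last from low signal in Thy1-negative cells (2.56). Erbb3, a neuregulin receptor, rose by 1.69, while the insulin receptor gene Insr fell by 2.08. Ret, Gfra1 and Csf1r kept their calls whichever array was left out, Erbb3 only without N1, N2 or P2, and Insr only without N2 (-2.45). Pdgfra, a receptor of mesenchyme, was not called (-0.33, adjusted p = 0.527). Kit, which marks differentiating spermatogonia, was not called (0.00, adjusted p = 1.00) and was highest on N2 (11.05, against 9.05 to 10.16 on the other arrays).

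Between receptors and RAS 13 adaptors and exchange factors were measured, of which 2 were higher, 5 lower and 6 not called (median -0.00). The RAS exchange factors Sos2 (-1.73, SE 0.25) and Sos1 (-1.38, SE 0.20), the docking proteins Gab2 (-1.29) and Gab1 (-0.85) and the phosphatase Ptpn11 (-0.76) fell, and the docking protein Dok2 (1.04) and the adaptor Shc1 (0.68) rose. The next probe set of Sos1 by brightness differed by -0.44 and was not called, a dimmer one of Ptpn11 differed by 0.55 and was not called, and the other of Shc1 rose by 1.41. The 5 lower genes became 3 without N1 and 0 without N3, P1 or P3; Dok2 kept its call throughout, and Shc1 lost it without N3 or P1. Crkl (0.11, adjusted p = 0.413) and Grb2, the adaptor that carries Sos to receptors (0.11, adjusted p = 0.808), were not called by their brightest probe sets, although 2 other probe sets of Crkl rose by 1.15 and 0.96.

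Of the RAS to ERK cascade 13 genes were analysed here, with 2 higher, 3 lower and 8 not called (median -0.12). Mras, a RAS relative that acts with Shoc2, fell by 2.96, and its other probe set differed by -3.31; the call was lost without N3 or P3. Braf, a RAF kinase, fell by 1.17 by its brightest probe set (SE 0.07, adjusted p = 0.00207), and kept the call whichever array was left out. Braf has other probe sets, whose values are not given here. Rps6ka3, an ERK-activated kinase, was lower by its brightest probe set (-1.73), but its next differed by 0.88 and was not called, and the call was kept only without N2 or P2. The scaffold Ksr1 (1.20, kept only without N2, P2 or P3) and the MEK gene Map2k1 (0.71, kept only without N2 or P2) rose. Mknk2, a kinase that ERK activates (0.93, adjusted p = 0.139), and the RAS relative Rras2 (-0.15, adjusted p = 0.320) were not called by their brightest probe sets, while the other of Mknk2 rose by 1.68 and the other of Rras2 fell by 0.52.

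Among 20 other inhibitors of the pathway 5 were higher, 3 lower and 12 not called (median 0.29). Il17rd, also known as Sef, a membrane inhibitor of FGF signalling, measured 8.33, 7.88 and 8.15 on the Thy1-negative arrays and 9.93, 9.58 and 9.80 on the Thy1-positive arrays and rose 3.14-fold (1.65, SE 0.15, adjusted p = 0.00569). Its other probe set rose by 2.48. Dusp9, a cytoplasmic ERK phosphatase related to Dusp6, measured 7.53, 9.05 and 7.88 on N1, N2 and N3 and 10.40, 10.24 and 10.47 on P1, P2 and P3 and rose 4.64-fold (2.22, SE 0.43, adjusted p = 0.0275). Its other probe sets rose by 2.44 and 2.37. On N2, then, Dusp9 was higher than on N1 and N3, whereas Dusp6 was lower. Dusp7, the third cytoplasmic phosphatase of this kind, rose by 1.05, and by 1.38 and 1.33 by its other probe sets.

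Of the same inhibitors Rasa3, which switches RAS off, rose by 1.60 (SE 0.07) and the ubiquitin ligase Cbl by 0.35, while Lrig1, which limits ERBB receptors, fell by 0.79, the ETS repressor Etv3 by 0.76 and the RAF inhibitor Pebp1 by 0.52. Il17rd, Rasa3, Etv3 and Pebp1 kept their calls whichever array was left out. Dusp9 and Cbl kept theirs only without N2 (2.66 for Dusp9), Lrig1 only without P2, and Dusp7 only without N2 or P2. The other probe sets of Cbl differed by 1.71, called, and -0.03, not called. Dusp1, a nuclear phosphatase induced by stress (0.22, adjusted p = 0.769), and the RAS inhibitor Rasa1 (0.46, adjusted p = 0.0949) were not called, though 2 other probe sets of Rasa1 rose by 0.68 and 0.65.

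**Figure D4:**
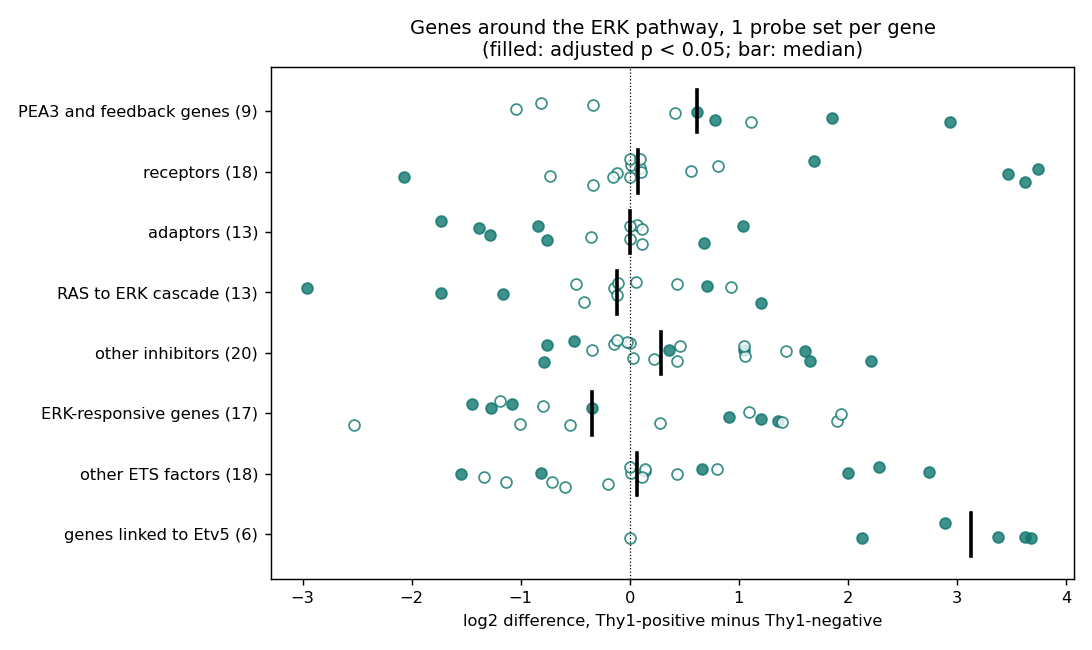
Difference between the fractions (Thy1-positive minus Thy1-negative, log2) of the 9 measured PEA3 and feedback genes and of the genes of 7 pathway lists, 1 point per gene by its brightest probe set; numbers in brackets are genes measured. Filled points had an adjusted p below 0.05, and the black bar is the median of the list. The medians of 6 lists lie between -0.34 and 0.29, and that of the genes linked to Etv5 is 3.13.

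Genes widely known to rise with ERK activity went both ways, with 3 higher, 4 lower and 10 not called of 17 (median -0.34). The immediate early gene Ier2 (-1.45), the transcription factors Srf (-1.28) and Myc (-1.08) and the survival factor Mcl1 (-0.34) fell, and Hbegf, an EGF receptor ligand (1.36), Phlda1 (1.20) and the AP-1 component Fosl1 (0.91) rose. The second probe set of Srf differed by 0.43 and was not called. Of the other probe sets of Mcl1, 4 fell by 1.15 to 1.39 and 1 differed by 0.22 and was not called. With a pseudocount of 16 Fosl1 differed by 0.59, and with arrays centred on their median Mcl1 by -0.22, both still called. Ier2, Myc and Mcl1 kept their calls only without N2, Srf lost its call without N1 or P3 and Hbegf without N3, while Phlda1 kept it only without N2 or N3 and Fosl1 only without N2 or P2. Fos (-0.80, adjusted p = 0.0916) and Egr1 (-1.01, adjusted p = 0.1002) were not called, though both were lower on every Thy1-positive array than on every Thy1-negative one.

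Outside the PEA3 group 18 other ETS factors were measured, of which 4 were higher, 2 lower and 12 not called (median 0.06). Fli1, a factor of blood and vessel cells, rose by 2.74 (adjusted p = 0.00715) and its relative Erg by 2.00 (adjusted p = 0.00816), both whichever array was left out. Spi1, the master factor of macrophages, was at low signal in Thy1-negative cells and rose by 2.29, or by 2.02 against a floor at the 25th percentile of each array, and by 1.03 with a pseudocount of 16, losing its call without N3. Ets1 rose by 0.66 (kept only without P1 or P2), and Elf1 (-1.55) and Etv6 (-0.81) were lower by their brightest probe sets, both kept only without N2. The other probe set of Etv6 differed by 1.08 the other way, without overlap, and was not called (adjusted p = 0.0616), so no direction is given for that gene. Elf2 (-0.20, adjusted p = 0.170) and Gabpa (-0.71, adjusted p = 0.119) were not called, and the other probe set of Gabpa differed by 1.10 and was not called either. The macrophage markers described above rose in the same arrays, and their part in these values was not tested.

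The genes that published work links to Etv5 in spermatogonia were mostly higher: of 6 measured, 5 rose, 0 fell by limma (also 0 at an unadjusted p below 0.05) and Ccnd2 was not called (-0.00, adjusted p = 0.997), with a median of 3.13. The other probe sets of Ccnd2 differed by -1.31 to 0.99, and 0 of them passed by limma, while 1 of them, 1416124_at at 0.99, had an unadjusted p below 0.05. The transcription factor Lhx1 measured 3.55, 4.07 and 3.51 in Thy1-negative and 7.72, 6.88 and 7.56 in Thy1-positive cells (3.68, adjusted p = 0.00416). The repressor Bcl6b measured 6.17, 6.16 and 6.37 in Thy1-negative and 9.58, 9.58 and 9.66 in Thy1-positive cells (3.37, adjusted p = 0.000170). The chemokine receptor Cxcr4 rose by 2.89 (adjusted p = 0.00915), Ret by 3.62 as given above, and the transcription factor Pou3f1 by 2.12 (adjusted p = 0.0316), the last kept only without N2 (2.56). Bcl6b, Lhx1 and Ret are also markers of undifferentiated spermatogonia, of which 12 of 13 rose, so this list is not a separate result, and its link to Etv5 was not tested by these data.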

How the data were processed

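RNA of 3 Thy1-negative and 3 Thy1-positive samples was measured on 1 Affymetrix array each. The deposited intensity values, 1 per probe set and array, are linear; per the labels the authors used GCRMA, while the labels' descriptions name Microarray Suite with a scaling target that the table's trimmed means (285 to 291) do not carry, so the procedure behind the table is not settled. Of 45101 probe sets 64 controls were left out. After a log2 transform with 1 added to each intensity, and no other normalization, values were fitted with limma 3.58.1 (R 4.3.3; lmFit and eBayes, fraction as the single term, 2-sided, Benjamini-Hochberg over 45037 probe sets, tested on simulated data). Genes came from the platform table; each is represented by its probe set of highest mean. Members, lists, tests and the 16 alternatives were chosen with earlier results of these data known. The alternatives were 3 scalings, a pseudocount of 16, 2 filters on low values, a replicate block, another variance model, each array left out, adjustment over genes, and no cross-hybridising probe sets. Beside the members, the genes named are called ones of each list and its 2 brightest not called, by each gene's brightest probe set; some of the other probe sets that differ in direction, call or size are given beside them. The labels do not say whether arrays of equal number share a preparation. Deviations of such arrays from their fraction means correlated at -0.19, -0.17 and -0.01. With 3 arrays a fraction these values cannot settle whether the arrays are paired. Protein sequences were not used here. RefSeq promoters were searched for 3 motifs.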

Additional observations from a re-analysis of the deposited data

How the results depend on the processing

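Etv4 and the brightest probe set of Etv5 passed in 15 of 16 alternatives, at 2.42 to 3.13 and 1.65 to 1.98, and failed only with the replicate number as a block (adjusted p = 0.0555 and 0.0821). Dusp4 passed in 11 and Spred2 in 7 of 16, all in the same direction. With the replicate block 0 member probe sets were higher and 0 lower, and 0 member genes were higher. Of the pathway genes 4 were then higher and 1 lower. Over all probe sets the block left 746 higher and 485 lower. Whether the replicate numbers pair the arrays is not settled, so this fit is not set aside. Centring arrays on their median moved the median of all probe sets to 0.13 and the share of higher calls from 50.6% to 81.4% (25863 higher and 5912 lower), and gave 16 higher member probe sets and 45 higher pathway genes; centring on housekeeping genes moved the median to -0.10 and that share to 41.8%, with 2 lower member probe sets and 1 lower gene. Lower member probe sets numbered 0 with quantile normalization, 0 without _x_at and _s_at probe sets, and 3 above the median level alone. The 2 lower genes above the median level were Spry1 and Spry2, and the lower gene with housekeeping centring was Spry2.

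Leaving out 1 array gave 4 to 7 higher and 0 to 5 lower member probe sets, and 2 to 3 higher and 0 to 3 lower genes. It gave 12 to 31 higher and 3 to 21 lower pathway genes. Over all probe sets the same fits gave 1639 to 6790 higher and 1538 to 6214 lower. Of the values that changed sign, 0 were called in the reported fit. With median centring Ccnd2 was at 0.12 and Spry2 1421656_at at 0.12, and called there (adjusted p = 0.00675). With housekeeping centring Kit was at -0.10, Spred1 1445228_at at -0.10, Spred1 1443652_x_at at -0.10 and Spred2 1423001_at at -0.092. With quantile normalization Kit was at -0.019 and Spred1 1443652_x_at at -0.00076, and with a pseudocount of 16 Kit was at -0.0028. With 1 array left out Kit ranged from -0.43 to 0.57, Grb2 from -0.025 to 0.34, Dusp1 from -0.023 to 0.49, Ccnd2 from -0.37 to 0.26, Spry2 1421656_at from -0.0022 to 0.0015 and Spred2 1436892_at from -0.56 to 0.0098. The cause of these changes was not tested. Signal near background, at a log2 of about 2.67 or below, gives at most a bound on a difference.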

Other observations

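The probe sets that the platform assigns to both Etv1 and the pseudogene Gm5454 cannot be given to either, but 2 of them moved opposite to Etv4 and Etv5. Probe set 1422607_at measured 8.70, 7.74 and 8.58 on N1, N2 and N3 and 5.70, 5.89 and 5.82 on P1, P2 and P3 (-2.54, SE 0.29, limma adjusted p = 0.00843). Probe set 1450684_at measured 8.79, 7.91 and 8.89 in Thy1-negative and 5.89, 5.75 and 5.89 in Thy1-positive cells (-2.69, SE 0.29, limma adjusted p = 0.00783). They were thus 5.82-fold and 6.44-fold lower in Thy1-positive cells, with no overlap, and N2 was the lowest Thy1-negative array in both. The third, 1445314_at, was at low signal in both fractions (2.63 and 2.64). Of the Sertoli markers 10 of 11 were lower in the same arrays, and their part in these values was not tested.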
